A study of Mus musculus with 8 samples.

Results

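Guanylate-binding proteins (GBPs) and immunity-related GTPases (IRGs) are large GTPases that cells make when interferon reaches them. The members described here are the rows of the deposited UMI (unique molecular identifier) matrix for Gbp2, Gbp3, Gbp5, Gbp6, Gbp7, Irgm1, Igtp and Iigp1, 8 of 16889 genes. They were chosen by name, as members of these families, with earlier results of these data known. Another 16 rows of the matrix belong to the same families, which makes 24 in all, and are given as the surroundings of the 8 members.

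Interferon gamma acts through its receptor, the kinases JAK1 and JAK2 and factors that bind GAS elements in the promoters of GBP and IRG genes, and type I interferons act on many of the same promoters through ISRE elements. The proteins gather on vacuoles that hold bacteria or parasites, damage their membranes and expose microbial products to the inflammasome in the cytosol. Irgm1 and Igtp belong to the regulatory IRGs, which sit on the membranes of the cell itself and keep effector IRGs such as Iigp1 from attacking them. Gut monocytes and macrophages meet the microbiota and are among the cells that make these GTPases.

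CD11b+ cells with CCR2 or CD64 on their surface were taken by flow sorting from the colonic lamina propria of female CD98hcΔCX3CR1 mice, 4 of them given corn oil (control, mice 1 to 4) and 4 given tamoxifen (cKO, mice 5 to 8). All mice of both groups carry the floxed CD98hc (Slc3a2) alleles and a tamoxifen-dependent Cre with YFP in the Cx3cr1 locus, so that the recombinase can act only in cells that express Cx3cr1 or descend from them. The labels give no age, and the methods of the study state 6 to 12 weeks for its mice. Injections of 100 µl, with 20 mg/ml tamoxifen in the cKO group, were made on 5 days in a row, with the readout on day 7. Since only cKO mice got tamoxifen, an effect of the drug and an effect of the deletion cannot be told apart.

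After the filters of the study, 3213 cells remained, 1863 from control and 1350 from cKO mice, with 83 to 724 cells and 497531 to 3762314 UMIs per mouse. Control mouse 3 and cKO mouse 5 had 85 and 83 cells, and 24 of the 83 cells of cKO mouse 5 were called doublets. In all, 15 control cells and 58 cKO cells were called doublets, and they were kept. Among the deposited barcodes 25 occurred in more than 1 library, of which 8 among the cells kept. Slc3a2 was at 232.5 to 493 CPM (UMIs of the gene in 1000000 UMIs of the sum) in control mice and at 291 to 357 CPM in cKO mice, with a log2 fold change of 0.02 (Benjamini-Hochberg adjusted p = 0.976 in edgeR's quasi-likelihood test, as for all adjusted p-values below), but reads at the 3′ end lie outside the excised exon and check nothing.

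Cells were grouped into 9 clusters without the interferon genes, and a cluster was named only by its markers. Cluster 1 (738 cells) was monocyte-like, with Chil3, Mgst1 and Ly6c2 among its leading genes. Cluster 2 (518 cells) was dendritic-like, cluster 3 (417 cells) macrophage-like, cluster 8 (202 cells) lymphoid-like and cluster 9 (86 cells) stromal-like. Cluster 7 (266 cells) was macrophage-like too, but its cells held a median of 1134 UMIs. Clusters 4 (led by Ccl24 and Il1r2), 5 (led by Il1a and Saa3) and 6 (a median of 1728 UMIs per cell) had no leading markers of a type. The makeup of the sorted cells differed between the groups. Monocyte-like cells were 11.8% to 24.7% of the cells of a control mouse and 26.6% to 31.4% of those of a cKO mouse. Dendritic-like cells were 18.8% to 27.3% in control and 4.34% to 9.68% in cKO mice. Cells of cluster 5 were 0.79% to 9.65% in control and 7.23% to 28.7% in cKO mice, with overlapping groups and the highest share in cKO mouse 7.

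The genes of the GBP members lie in 2 groups on the mouse genome (GRCm38). Gbp5 (chr3:142493978-142522344), Gbp7 (chr3:142530342-142550149), Gbp3 (chr3:142560026-142573209) and Gbp2 (chr3:142620602-142638008) stand in a row on the forward strand of chromosome 3, and Gbp6 (chr5:105270702-105293698) lies on the reverse strand of chromosome 5. Irgm1 (chr11:48861968-48871683) and Igtp (chr11:58199556-58207591) are both on chromosome 11, on the reverse and the forward strand. Igtp overlaps Irgm2 on the same strand, so UMIs of the pair could have been given to either gene.

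Interferon factors bind the promoters of this family, so the stretches that hold their elements are shown. A promoter table from RefSeq (GRCm38.p6, 250 bases before to 50 bases after each start) held 6 of the 8 members. An ISRE-like motif on either strand (GAAA, 2 bases of any kind, and GAAA again) was present in 6 of these 6 genes, against 936 of all 27025 genes in the table (3.46%). In these windows of 30 bases, each read on the strand of the gene, capitals mark the motif.
Gbp2, chr3:142620594-142620623, forward strand: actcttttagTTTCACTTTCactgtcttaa
Gbp3, chr3:142559989-142560018, forward strand: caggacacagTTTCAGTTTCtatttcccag
Gbp5, chr3:142496759-142496788, forward strand: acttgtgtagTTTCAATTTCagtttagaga
Gbp7, chr3:142530273-142530302, forward strand: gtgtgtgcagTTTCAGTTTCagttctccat
Irgm1, chr11:48871425-48871454, reverse strand: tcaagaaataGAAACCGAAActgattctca
Igtp, chr11:58199512-58199541, forward strand: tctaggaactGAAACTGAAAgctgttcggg

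In the 4 GBP genes the motif was written as its reverse complement, and in both IRG genes it was written forward. The copies shown began 165 bases before the RefSeq start of Gbp5 and 24 to 59 bases before the starts of the other 5 genes. These starts can differ from the ends of the gene spans given above. A GAS-like motif, TTCNNNGAA, which reads the same pattern on both strands, was present in the promoters of 3 of the 6 members (Gbp5, Gbp7 and Igtp) against 8.13% of all genes in the table. One copy in Gbp7 and the copy in Igtp read as follows, with the motif in capitals.
Gbp7, chr3:142530220-142530248, forward strand: tccgttttctTTCCAGGAAaagcagaagc
Igtp, chr11:58199501-58199529, forward strand: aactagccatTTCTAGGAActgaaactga
In Igtp the windows overlap, and the GAS-like and the ISRE-like motif begin 45 and 34 bases before the start. Over the whole family, 10 of the 15 genes in the table held the ISRE-like motif and 6 of 15 the GAS-like one. A match of letters is no binding site.

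All 8 members were detected. Over all cells of a group they had between 47 UMIs (Gbp5, control) and 565 UMIs (Gbp3, control). The first question was whether they differed between cKO and control mice when all cells of a mouse were summed. Gbp6, Iigp1 and Irgm1 were higher in cKO mice, and the other 5 members did not pass the test. Of 11387 genes tested, 341 (2.99%) were called higher and 169 (1.48%) lower at a false discovery rate of 0.05, and all cKO mice stood above all control mice in 456 genes (4%). Against this background 3 of 8 members were called higher and 0 lower, and the same 3 members were those whose groups did not overlap. At an unadjusted p under 0.05, which 10.5% of genes reached as higher, 7 of 8 members (all but Gbp2) were higher and 0 lower.

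Gbp6, a guanylate-binding protein of the chromosome 5 group, was at 7.71, 4.28, 1.70 and 4.38 CPM in control mice 1 to 4 and at 18.1, 21.2, 23.7 and 19.7 CPM in cKO mice 5 to 8. The lowest cKO mouse thus had more than the highest control mouse. Its log2 fold change was 2.12 ± 0.29 (SE, n = 4 and 4, adjusted p = 0.0025). In the last 500 bases of its transcripts, 75.2% of the stretches of 58 bases, the length of the reads, also occur in other genes (Gm43302, Gbp10 and Gbp9), so the split of UMIs between Gbp6 and these copies is uncertain. For the other 7 members this share was 0% to 2.72%.

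Iigp1, an effector IRG that coats vacuoles of pathogens, was at 7.18, 7.65, 5.09 and 12.1 CPM in control mice and at 20.1, 19.3, 43.8 and 46.4 CPM in cKO mice. The groups did not overlap, and cKO mice 7 and 8 had about the same high level. The log2 fold change was 2.11 ± 0.33 (SE, adjusted p = 0.0058).

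Irgm1, a regulatory IRG that is also tied to autophagy, was at 26.8, 33.3, 40.7 and 41.4 CPM in control and at 74.4, 52.0, 70.8 and 75.2 CPM in cKO mice. Its log2 fold change was 1.06 ± 0.19 (SE, adjusted p = 0.0117). The call was lost without control mouse 1 (log2 fold change 0.94, adjusted p = 0.0509) and without control mouse 2 (1.02, adjusted p = 0.0535), while Gbp6 and Iigp1 were called whichever mouse was left out.

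Igtp, the other regulatory IRG, was at 27.6, 23.9, 25.5 and 40.1 CPM in control and at 28.1, 43.5, 54.7 and 54.2 CPM in cKO mice. The groups overlapped through cKO mouse 5, which stood below control mouse 4, and the log2 fold change of 0.77 ± 0.23 (SE, adjusted p = 0.0826) did not pass the test. Gbp5, which promotes inflammasome assembly, was at 5.58, 2.14, 3.39 and 5.72 CPM in control and at 4.02, 9.07, 21.7 and 9.19 CPM in cKO mice, with a log2 fold change of 1.6 ± 0.45 (SE, adjusted p = 0.067). The high value of cKO mouse 7 and the low value of cKO mouse 5 made its spread wide.

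The remaining 3 GBPs, neighbours of Gbp5 on chromosome 3, had the smallest log2 fold changes of the 8 members. Gbp2 was at 25.7 to 65.7 CPM in control and 22.1 to 97.7 CPM in cKO mice, Gbp3 at 32.3 to 60.2 and 46.2 to 78.0 CPM, and Gbp7 at 30.0 to 45.8 and 30.1 to 72.0 CPM. Their log2 fold changes were 0.63 ± 0.36, 0.52 ± 0.20 and 0.55 ± 0.24 (SE), with adjusted p-values of 0.356, 0.168 and 0.225 in edgeR's quasi-likelihood test. In each of these 3 genes the highest mouse was cKO mouse 7. This mouse also had the largest share of its cells in cluster 5 (28.7%), and the part of that share in these values was not tested. Without the lymphoid-like, stromal-like and dendritic-like clusters the log2 fold changes of Gbp2, Gbp3 and Gbp7 were 0.16, 0.02 and 0.04, while those of Gbp6, Irgm1 and Iigp1 were 2.6, 1.12 and 1.78 and still called.

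**Figure D1:**
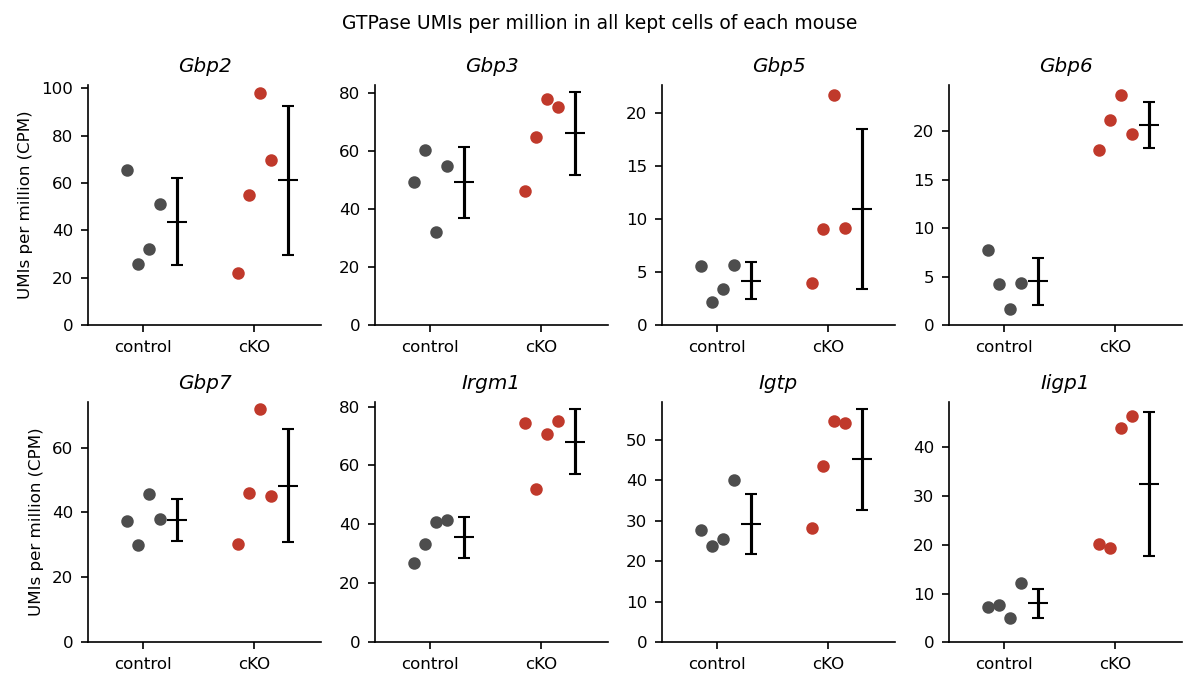
Level of each of the 8 GTPases in each mouse, in CPM of all cells summed (y axis), for 4 control and 4 cKO mice (points) with the group means (lines). For Gbp6, Iigp1 and Irgm1 all cKO mice stand above all control mice, and for the other 5 genes the groups overlap.

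Marker lists moved with the groups as well. The 10 monocyte markers summed to 1789 to 3460 CPM in control and 7163 to 10566 CPM in cKO mice (7 of 10 called higher), the 15 dendritic cell markers to 1761 to 2123 and 1194 to 1693 CPM (9 of 15 called lower), and the neutrophil markers to 38.8 to 85.5 and 105 to 168 CPM (3 of 6 tested called higher), with S100a9, Retnlg and Ngp at 0 in control mice. Lymphoid markers summed to 241 to 8862 CPM in control and 4385 to 13064 CPM in cKO mice, with overlapping groups (1 of 13 tested called higher, Nkg7, with a list median of 0.74). Macrophage markers summed to 11719 to 23585 and 9594 to 15860 CPM (1 of 15 called higher and 1 lower), stromal markers to 647 to 2117 and 248 to 790 CPM (0 of 9 tested called) and epithelial markers to 11 to 21.9 and 9.7 to 20.1 CPM (0 of 2). The part of these shifts in the values over all cells was not tested, and the values within clusters are given further on. The 11 genes of handling stress (immediate early and heat shock genes) summed to 12211 to 13704 and 9409 to 13467 CPM, and 0 of 11 were called (1 was lower at an unadjusted p under 0.05).

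The rest of the 2 families moved in the same direction where it was called. Of the 15 other family genes tested, 5 were called higher and 0 lower, with a median log2 fold change of 1.04, against 0.91 for the 8 members and -0.03 for all genes. The IRGs Gm4951, Tgtp1, Tgtp2 and Ifi47 had log2 fold changes of 1.80, 1.11, 1.0 and 1.04, and the guanylate-binding protein Gbp4 of 1.34. The end of Tgtp2 is shared in full with its near copy Tgtp1, so their UMIs cannot be assigned with certainty. Gbp2b, a neighbour of Gbp2, was at 5.85, 15.9, 8.49 and 3.70 CPM in control and at 2.01, 1.21, 3.62 and 1.31 CPM in cKO mice. It was lower in all cKO mice, as were 950 of the genes tested (8.34%), but its log2 fold change of -1.85 did not pass the test (adjusted p = 0.0909). Gbp8, Gbp9 and Gbp10 had log2 fold changes of 0.29, 1.06 and 0.90, Irgm2, Gm5431 and Irgc1 of 1.04, 1.45 and 1.04, the pair 9930111J21Rik1 and 9930111J21Rik2 of 0.61 and 0.47, and Irgq of -0.56, all without passing the test.

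Upstream of the GTPases, 1 of 8 genes of interferon gamma signalling was called higher and 0 lower, with a median log2 fold change of 0.21. In this list the 2 receptor chains went opposite ways, Ifngr1 at -0.39 (adjusted p = 0.178) and Ifngr2 at 0.48 (adjusted p = 0.103). Neither chain passed edgeR's quasi-likelihood test. The transcription factor Irf1 (-0.01, adjusted p = 0.989) and the feedback inhibitor Socs1 (1.6, adjusted p = 0.153) did not pass it either. On the type I side, Stat2 and Irf9, which form part of the factor that binds ISRE elements, were called at log2 fold changes of 0.85 and 0.67, which is 2 of 5 genes. Transcripts of the ligands were scarce. Ifng, made by T cells and natural killer cells, had 15 UMIs in control and 14 in cKO mice, of which 15 and 13 were in lymphoid-like cells. Ifnb1 had 2 UMIs in control and 8 in cKO mice. Neither could be tested, and of Il18 and Il27, which could, 0 of 2 were called (Il18 was higher at an unadjusted p under 0.05).

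Other targets of interferon differed by class. Of 24 targets used for type I interferon that could be tested, 22 were called higher and 0 lower, with a median log2 fold change of 2.04. Ifi44, Oas3, an oligoadenylate synthetase, and Irf7 were at log2 fold changes of 4.34, 3.08 and 2.97. Of 23 targets used for interferon gamma, 4 were called higher and 6 lower, with a median of 0.02. Among these, the checkpoint ligand Cd274, the chemokine Cxcl10 and B2m of MHC class I rose by 1.37, 1.31 and 1.01 on the log2 scale. Those called lower were Irf8 (-0.89), the MHC class II genes H2-Aa, H2-Ab1, H2-Eb1 and Cd74, and their transactivator Ciita (-0.98). Within monocyte-like cells 5 of these 6 genes were called lower, where 0.39% of all genes were. Ciita was lower by -3.02 and the 4 class II genes by -2.11 to -1.61 on the log2 scale. Irf8 was not called there (-0.54, adjusted p = 0.358 in edgeR's quasi-likelihood test). Within dendritic-like cells, where 0.00887% of all genes were called lower, 0 of the 6 were called, with log2 fold changes of -0.66 to -0.05. The 6 genes were picked from sums that hold these same cells, so the counts within clusters are no independent support. Irf8 and Ciita were at 564 to 1043 and 37.3 to 52.3 CPM in control mice and at 329 to 422 and 14.1 to 30.8 CPM in cKO mice. Both lists are broad, and many of their genes answer to both interferons. Of the 10 genes of the ATG8 conjugation machinery that helps to bring GTPases to vacuoles, 0 were called in either direction (median 0.17), and 1 was higher at an unadjusted p under 0.05. Of 7 inflammasome genes 1 was called, Casp4, the sensor of cytosolic LPS, which was higher (0.88, adjusted p = 0.0473).

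**Figure D2:**
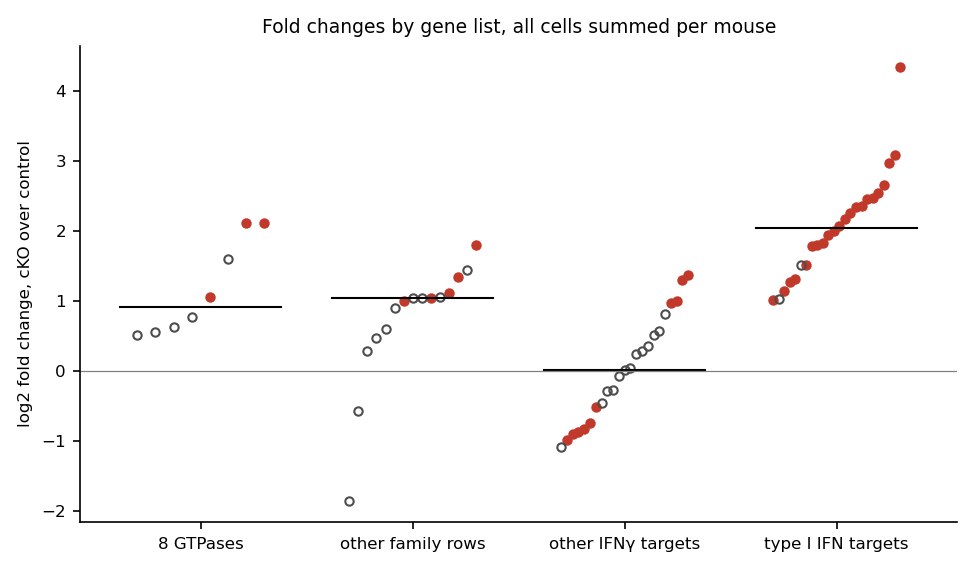
Log2 fold change, cKO over control, in all cells summed (y axis) for each tested gene of 4 lists (columns, genes sorted by value). Filled red points were called at a false discovery rate of 0.05, open points were not, and horizontal lines are list medians. The 8 members have a median of 0.91, between the type I targets at 2.04 and the interferon gamma targets at 0.02.

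The second question was in which cells the GTPases were found. Levels were compared between clusters, not between genes, from UMIs summed per mouse and cluster with at least 20 cells. Over both groups, Gbp6 was highest in lymphoid-like cells, at 61.9 ± 27.5 CPM (SD, n = 6 mice), and lowest in dendritic-like cells, at 1.93 ± 2.71 CPM (n = 7). In control mice alone it averaged 71.9 CPM in lymphoid-like cells (n = 3). It was at 0.82 CPM in monocyte-like cells (n = 3), 0.64 CPM in dendritic-like cells (n = 4) and 0 CPM in cluster 5 (n = 2) of these control mice. In lymphoid-like cells it was at 91.6, 78.8 and 45.3 CPM in control mice 1, 2 and 4 and at 45.5, 86.5 and 23.6 CPM in cKO mice 6, 7 and 8. Each of these mice held more Gbp6 in its lymphoid-like cells than in its monocyte-like ones, although cKO mouse 8 was nearly level, at 23.6 and 23.5 CPM.

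Igtp was also highest in lymphoid-like cells, at 117 ± 21.6 CPM (SD, n = 6), where it was between 91.6 and 144 CPM in the 6 mice, next to 58 ± 6.5 CPM (n = 5) in cluster 5 and 22.4 ± 17.6 CPM (n = 7) in dendritic-like cells. Iigp1 stood at 66.6 ± 69.5 CPM (SD, n = 6) in lymphoid-like cells, with values from 8.32 to 189 CPM, and at 17.7 ± 14.7 CPM (n = 7) in monocyte-like cells. Its level was 49.2 CPM in the single mouse with enough stromal-like cells. Within the 6 mice that had both clusters, Gbp6, Igtp and Iigp1 were higher in lymphoid-like than in monocyte-like cells in 6 of 6 mice, by 1.79 ± 1.29, 1.34 ± 0.48 and 1.29 ± 0.69 (SD) on the log2(CPM + 10) scale. The Gbp6 value joins control and cKO mice, whose monocyte-like levels averaged 0.82 CPM (n = 3) and 23.7 CPM (n = 4).

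Over both groups, dendritic-like cells were lowest of the 9 clusters for Gbp2 (27.1 ± 25.7 CPM, SD, n = 7), Gbp3 (21.6 ± 11.9 CPM) and Gbp7 (13.8 ± 8.22 CPM), besides Gbp6. In 6 of 6 mice these 3 genes were lower than in monocyte-like cells, by -1.21 ± 0.49, -1.50 ± 0.69 and -1.23 ± 0.76 (SD) on the log2(CPM + 10) scale. Each of these 6 differences reached the smallest p that 6 mice allow in a two-sided exact sign-flip test, 0.0312, and over the 16 differences tested the adjusted p was 0.0833, so 0 of 16 passed the threshold. These pairs of clusters were chosen after the levels were seen. Irgm1 did not share this order. Over both groups it was at 55.0 ± 23.0 CPM (n = 7) in dendritic-like and 61.2 ± 14.6 CPM (n = 7) in monocyte-like cells. Dendritic-like cells were higher in 3 of 6 mice. Monocyte-like cells were its highest cluster only with both groups joined. In control mice alone cluster 5 was highest, at 56.8 CPM (n = 2) against 47.3 CPM (n = 3) in monocyte-like cells. In cKO mice alone cluster 3 was highest, at 101 CPM (n = 2) against 71.7 CPM (n = 4).

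Cluster 5, led by the inflammatory genes Il1a and Saa3, was highest for Gbp2 (141 ± 118 CPM, SD, n = 5), Gbp5 (23.6 ± 15.9 CPM) and Gbp7 (86.5 ± 19.3 CPM). The large spread of Gbp2 came from control mouse 1, at 346 CPM, against 42.0 CPM in control mouse 4 and 103 to 111 CPM in the 3 cKO mice. Over both groups Gbp3 was highest in macrophage-like cells of cluster 3, at 91.6 ± 13 CPM (n = 5). In control mice alone it was higher in cluster 5 than in cluster 3, at 106 and 93.3 CPM. In cKO mice alone its levels in clusters 3 and 4 were nearly level, at 89.0 and 91.6 CPM. Outside cluster 5 Gbp5 was low, between 0 and 12.8 CPM on average. When the clusters were put in order of mean level for each gene, 0 of 51 testable pairs of neighbours differed beyond their spread in two-sided exact sign-flip tests (smallest adjusted p = 0.797, 0 pairs at an unadjusted p under 0.05). No pair had more than 6 mice, and with 5 mice p cannot go below 0.0625, so the order between neighbours is not resolved. In control mice alone 6 of the 8 genes kept their highest cluster, while Gbp3 and Irgm1 were highest in cluster 5.

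**Figure D3:**
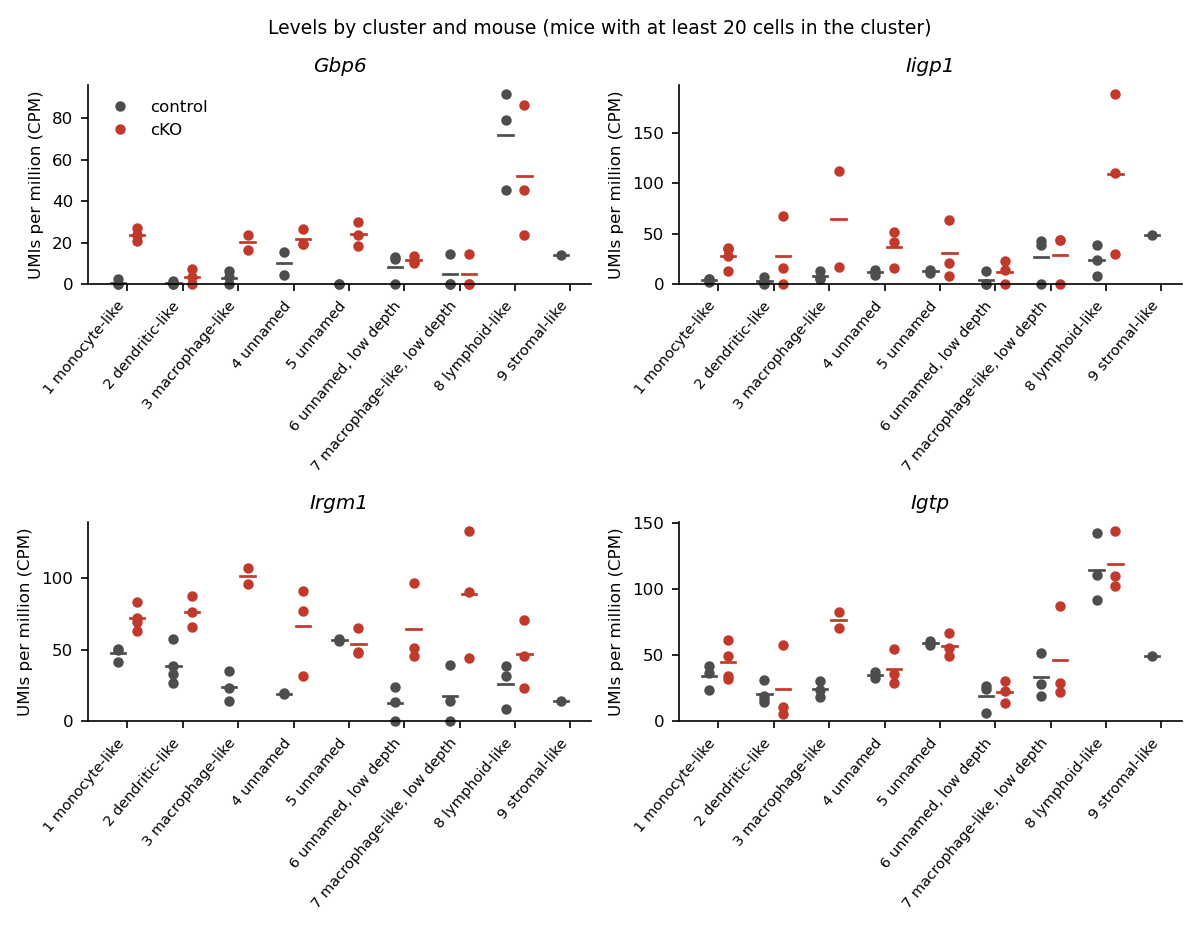
Level of Gbp6, Iigp1, Irgm1 and Igtp (panels) in CPM (y axis) in each of the 9 clusters (x axis). Points are control and cKO mice with at least 20 cells in the cluster and lines are the means of each group. Gbp6 and Igtp stand highest in lymphoid-like cells, at 61.9 and 117 CPM over both groups, and the monocyte-like level of Gbp6 differs between the groups.

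The members did not follow each other closely over the 48 sums of a cluster in a mouse, which share libraries and depth. The closest pairs were Gbp3 and Gbp7 (Pearson's r = 0.63) and Gbp6 and Igtp (r = 0.60), while Gbp2 and Irgm1 were at r = -0.11. Among 6811 genes with a mean of at least 10 CPM, the non-members most like the mean of the 8 members over these sums were the MHC class I genes H2-D1 (r = 0.75), B2m (0.72), H2-T22 (0.72) and H2-K1 (0.70) and the IRG Ifi47 (0.73).

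The third question was whether the difference between cKO and control mice was present within a cluster. In monocyte-like cells Gbp6 was nearly absent in control mice, at 2.45, 0 and 0 CPM in mice 1, 2 and 4, and was at 20.7, 23.8, 26.8 and 23.5 CPM in cKO mice 5 to 8. This was 2 UMIs against 54 UMIs, a ratio of pooled CPM of 19.4 with a 95% counting interval of 5.12 to 164, which covers counting error only. The fitted log2 fold change was 3.97 ± 0.68 (SE, adjusted p = 9.1e-05). In these mice the lymphoid markers summed to 190 to 324 CPM in the monocyte-like cells of control and 131 to 545 CPM in those of cKO mice, against 80994 to 164523 CPM in the lymphoid-like cells. Of the 17 lymphoid markers in the matrix, 5 were at 0 in the monocyte-like cells of control mice and 6 in those of cKO mice. The part of lymphoid RNA in the Gbp6 value was not tested.

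Iigp1 also rose in monocyte-like cells, from 4.90, 5.29 and 2.63 CPM in control mice 1, 2 and 4 to 27.6, 13, 36.2 and 34.5 CPM in cKO mice. With 7 against 66 UMIs the pooled ratio was 6.78 (95% counting interval 3.11 to 17.5), and the log2 fold change was 2.65 ± 0.68 (SE, adjusted p = 0.0226). This call was lost without control mouse 1 (adjusted p = 0.136), control mouse 2 (0.0756) or cKO mouse 7 (0.0984), with log2 fold changes of 2.82, 2.73 and 2.46. Irgm1 was at 41.6, 50.2 and 50.02 CPM in control and at 82.8, 69.2, 63.0 and 71.8 CPM in cKO mice. The groups did not overlap, which was so for 493 of 11273 genes (4.37%) in this cluster, but the log2 fold change of 0.61 ± 0.32 (SE) did not pass the test (adjusted p = 0.523). In all, 2 of 8 members were called higher in monocyte-like cells, where 127 of 11273 genes (1.13%) were, and 0 lower, where 0.39% were.

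The monocyte-like cells of both groups differed in more than interferon genes. Monocyte markers summed there to 6614 to 11044 CPM in control and 13919 to 17460 CPM in cKO mice, macrophage markers to 6732 to 13062 and 1907 to 8454 CPM, and the handling stress genes to 18177 to 19132 and 10379 to 13782 CPM. Their part in the values of Gbp6 and Iigp1 was not tested.

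In dendritic-like cells Iigp1 was called as well (log2 fold change 3.07 ± 0.63, SE, adjusted p = 0.0045, with 47 of 11273 genes called higher, 0.417%, and 0.00887% lower), and 0 members were called lower. It was at 2.42, 1.96, 0 and 7.09 CPM in control mice and at 0, 16.3 and 67.8 CPM in cKO mice 6, 7 and 8. The groups overlapped through cKO mouse 6, and without cKO mouse 8 the log2 fold change was 0.76 (adjusted p = 0.947), so the call rested on that mouse. The call was also lost without control mouse 2 (2.78, adjusted p = 0.0594). Irgm1 was at 26.6, 32.7, 38.7 and 57.6 CPM in control and at 65.7, 76.3 and 87.2 CPM in cKO mice, without overlap (3.5% of genes) but with an adjusted p of 0.444. Gbp6 had only 3 UMIs in control and 4 in cKO mice.

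Clusters 3 and 4 could be tested only when sums of at least 10 cells were let in. In the unnamed cluster 4, led by Ccl24, Irgm1 was at 18.9, 0, 11.5 and 19.8 CPM in control and at 120, 31.7, 77.1 and 90.5 CPM in cKO mice, a log2 fold change of 2.1 ± 0.43 (SE, adjusted p = 0.002), which made it 1 of 8 members called higher, where 0.495% of genes were, and 0 lower, where 0.0795% were. Gbp6 and Iigp1 did not overlap between the groups there either (2.37% of genes), but their log2 fold changes of 1.72 and 1.74 did not pass the test. At an unadjusted p under 0.05 these 3 members were higher and Gbp2 was lower, at 185, 31.4, 80.3 and 66.5 CPM in control and 20, 63.3, 73.9 and 16.2 CPM in cKO mice (log2 fold change -1.02, adjusted p = 0.638). In macrophage-like cells of cluster 3, Gbp6 was at 6.13, 3.37 and 0 CPM in control mice 1, 2 and 4 and at 26.3, 23.7 and 16.7 CPM in cKO mice 6, 7 and 8, with a log2 fold change of 2.06 ± 0.69 (SE, adjusted p = 0.215). Irgm1 (1.44, adjusted p = 0.0928) and Iigp1 (2.09, adjusted p = 0.172) did not pass edgeR's quasi-likelihood test there. Without cKO mouse 6 both did (1.72 and 2.45, adjusted p = 0.0309 and 0.0314), and without cKO mouse 8 Iigp1 did (2.63, adjusted p = 0.042). With all mice 0 of 8 members passed (4 of 8 were higher at an unadjusted p under 0.05, and DESeq2 called 2), where 0.486% of genes were called higher and 0.221% lower.

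In lymphoid-like cells, where Gbp6 and Igtp were highest, 0 of 8 members were called in either direction, where 0.151% of genes were called higher and 0.00887% lower. At an unadjusted p under 0.05 only Iigp1 (1 of 8) was higher, and DESeq2 called 0 of 8 too. Gbp6 had 28 UMIs in control and 20 UMIs in cKO mice and a log2 fold change of -0.40 ± 0.50 (SE, adjusted p = 0.907). Igtp was at 91.6, 110 and 142 CPM in control mice and at 144, 110 and 102 CPM in cKO mice. Iigp1 was at 8.32, 23.6 and 38.8 CPM in control and at 30.3, 189 and 110 CPM in cKO mice, with a log2 fold change of 2.15 ± 0.68 (SE, adjusted p = 0.364). The clusters of low depth, 6 and 7, held 1 to 9 UMIs of Irgm1 in each mouse with any, and 0 members were called there, where 0.106% and 0.133% of genes were called higher and 0% and 0.00887% lower. Irgm1 was the 1 member with an unadjusted p under 0.05 in each of them, and DESeq2 called 0 of 8 in both.

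In cluster 5 only 2 control mice had enough cells for a sum, so no test was made. Gbp6 was at 0 UMIs of 301222 in control mice 1 and 4 and at 23.7, 18.3 and 29.8 CPM in cKO mice 6, 7 and 8. The pooled cKO level of 21.7 CPM was 2.18-fold a floor of 3 UMIs over the control sums (9.96 CPM). This ratio leaves out the counting error of the 24 cKO UMIs, so it is no lower bound. Irgm1 was at 57.6 and 56.0 CPM in control mice and at 47.5, 64.9 and 48.4 CPM in cKO mice, so the groups overlapped.

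Over the 7 clusters tested, Irgm1 had log2 fold changes above 0 in 7 of 7, from 0.61 to 2.55, and all its cKO mice stood above all control mice in 6 of 7, where this held for 2.37% to 5.8% of genes (3.99% and 3.02% in clusters 6 and 7). The exception was the lymphoid-like cluster (3.61% of genes). In cluster 3 the lowest cKO mouse and the highest control mouse were nearly level, at 35.0 and 34.9 CPM. Gbp6 showed such a gap in 3 of 7 clusters, Iigp1 in 2 of 7, Gbp5 and Igtp in 1 of 7, and Gbp2, Gbp3 and Gbp7 in 0 of 7. The log2 fold change was above 0 for Gbp5, Igtp and Iigp1 in 7 of 7 clusters and for Gbp6 in 6 of 7, but for Gbp7 in 4 of 7, for Gbp2 in 3 of 7 (log2 fold changes of -1.02 to 1.40) and for Gbp3 in 2 of 7. The sums of 1 mouse share its library, so clusters are no independent replicates.

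**Figure D4:**
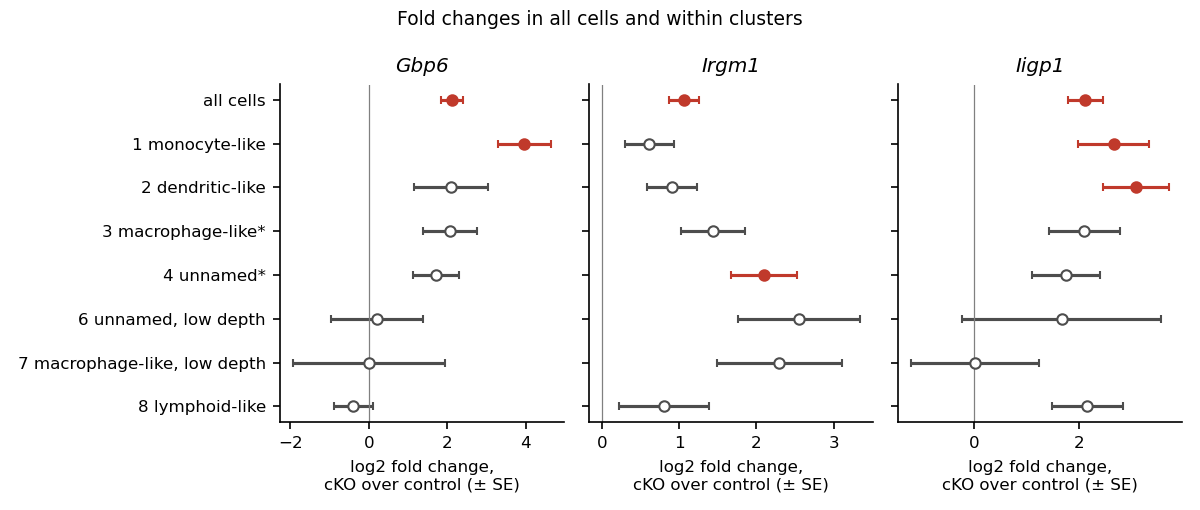
Log2 fold change, cKO over control, of Gbp6, Irgm1 and Iigp1 (panels, x axis) in all cells and within each tested cluster (y axis), with the standard error as bars. Red filled points were called at a false discovery rate of 0.05, and an asterisk marks clusters tested from 10 cells. Gbp6 stands at 3.97 in monocyte-like cells and at -0.40 in lymphoid-like cells.

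A call in a cluster and none in another is not a difference, so the differences were tested. In these edgeR fits the sums of the same mouse in different clusters counted as independent. Between macrophage-like cells of cluster 7 and monocyte-like cells, and between cluster 3 and monocyte-like cells, 0 of 8 members had a fold change that differed at the threshold (0% of genes in either direction for cluster 7, and 0.00883% higher and 0.0265% lower for cluster 3). At an unadjusted p under 0.05 there were 0 as well, and limma with the mouse as a random term also called 0 for cluster 7. For Gbp6 the unadjusted p-values, from the same edgeR's quasi-likelihood test, were 0.0928 and 0.0688. Between lymphoid-like and monocyte-like cells, a pair chosen after the values were seen, the log2 fold change of Gbp6 was lower by -4.36 ± 0.87 (SE, adjusted p = 0.0149), and it was 1 of 6 genes (0.0532%) called lower, with 3 called higher (0.0266%), and the only one of the 8 members that was called. The fitted size depends on the 2 UMIs of the control monocyte-like cells. The call was lost without control mouse 1 (-6.17, adjusted p = 0.229), control mouse 2 (-3.94, adjusted p = 0.261), cKO mouse 6 (-4.35, adjusted p = 0.117) or cKO mouse 8 (-4.00, adjusted p = 0.122).

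The share of a gene's UMIs that each cluster gave differed between the groups. Of the 57 UMIs of Gbp6 in control mice, 50.9% were in lymphoid-like and 3.51% in monocyte-like cells, and of the 148 in cKO mice 13.5% and 36.5%. Cluster 5 gave 0% and 16.2%. Over all genes, monocyte-like cells held 15.5% of the UMIs of control and 31.6% of those of cKO mice. For Iigp1 (91 and 257 UMIs) the monocyte-like share was 7.69% and 25.7%, and the stromal-like share 17.6% and 4.28%. For Irgm1 (357 and 471 UMIs) the dendritic-like share was 44.3% and 14.6%, near the 39.3% and 13.8% of all UMIs that these cells held. Shares of UMIs carry the numbers and depth of cells with them, and are given as a description.

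**Figure D5:**
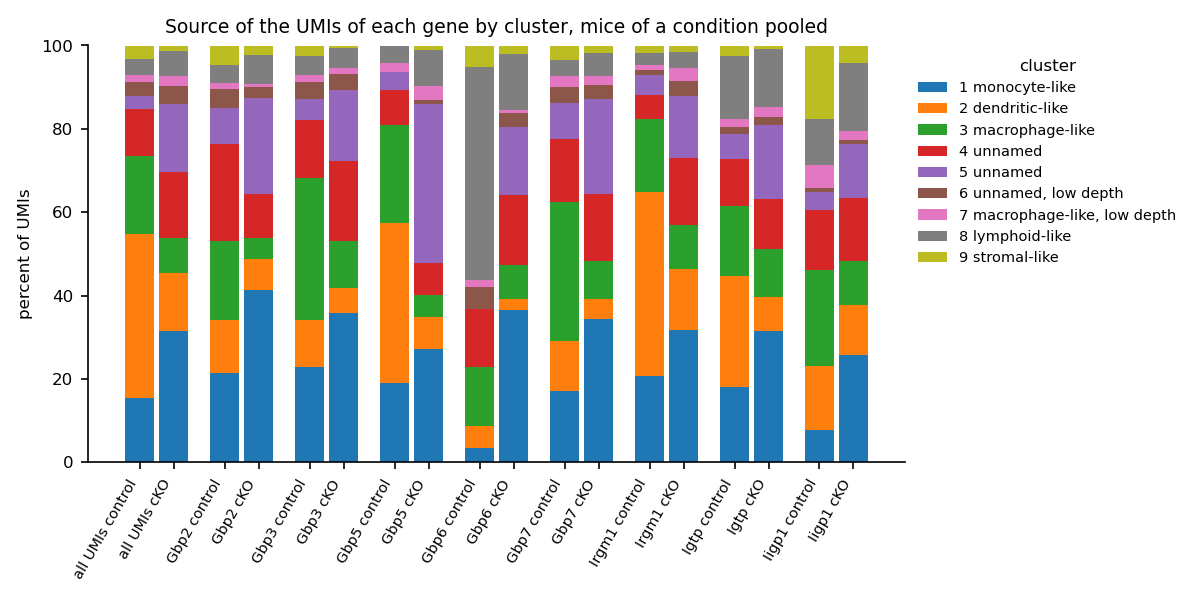
Percent of the UMIs (y axis) of all genes and of each member (x axis) that came from each of the 9 clusters (stacked colours), for control and cKO mice. For Gbp6 the lymphoid-like share is 50.9% in control and 13.5% in cKO mice, and the monocyte-like share 3.51% and 36.5%.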

How the data were processed

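Single-cell 3′ RNA-seq was done on sorted colonic cells of 4 control and 4 cKO mice, with 1 well per mouse on a shared day and cartridge. The authors aligned 58-base reads to mm10 plus EYFP with Cell Ranger and STAR 2.5.3a and deposited raw UMI counts per gene and cell, with wells merged without down-sampling. Each count column names its well. Cells were kept at a log10 UMI count of at least 2.8, a log10 gene count of at least 2.6, at most 5% mitochondrial UMIs and no hemoglobin UMI, which gave 497531 to 3762314 UMIs per mouse. Doublets were called by Scrublet (scanpy 1.11.5) and kept. Clusters were rebuilt (scran 1.30.0, Ward, 9 clusters) without the interferon lists, the study's changed genes, Slc3a2 and EYFP, so names may differ from those of the study. A cluster took the type with most markers among its 10 leading genes by fold.

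UMI counts were summed over all cells of a mouse, or over its cells in a cluster where there were at least 20, and tested with edgeR 4.0.16 (TMM, quasi-likelihood test, CPM above 1 in at least 3 sums and UMIs in at least 20 cells) under R 4.3.3, adjusted by Benjamini-Hochberg over all genes tested. Levels are CPM. For all cells summed, the p-values measure the spread between mice. The clusters were fitted together without a term for the mouse, so sums of the same mouse in different clusters counted as independent. The p-values within and between clusters therefore do not measure the spread between mice alone. Comparisons of levels used two-sided exact sign-flip tests on log2(CPM + 10). Alternatives used DESeq2 1.42.0, limma 3.58.1 and others. The genes named are the 8 members, all tested family rows, Slc3a2, the 3 largest changes of each list among called genes, and the 5 genes most like the members. Ifngr1, Ifngr2, Irf1, Socs1, Irf8, Ciita and the ligands were named after their values were seen. The members and lists were chosen with earlier results of these data known. On simulated counts with 200 genes changed 4-fold, 169 were recovered in all cells summed and 101, 73, 20, 10 and 34 in clusters 1, 2, 6, 7 and 8. The 95% counting intervals and the floor of 3 UMIs cover counting error only, and the floor only that of the control count. Gene positions are from GENCODE on GRCm38 and promoters from RefSeq. Some genes are not reported here.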

Additional observations from a re-analysis of the deposited data

Results flagged for a closer look

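Gbp5 in the monocyte-like cells of cKO mouse 7 was at 21 CPM, far from the 4.14 to 6.90 CPM of the other 3 cKO mice. It was the only one of 32 groups of 4 mice checked with a mouse so far from the others, and chance flags about 1 in 20 groups. In the same cells control mice were at 5.27 to 6.12 CPM. Gbp6 differed in its response between lymphoid-like and monocyte-like cells, by -4.36 in log2 fold change in edgeR's quasi-likelihood test of the difference. Gbp6 had 2 UMIs in control monocyte-like cells.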

How the results depend on the processing

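In all cells summed, the number of members called was 3, and it was 5 with edgeR's likelihood ratio test, which added Gbp5 (adjusted p = 0.0225) and Igtp (adjusted p = 0.033), and 2 to 4 with each mouse left out in turn. Gbp6, Irgm1 and Iigp1 were called under each of 9 alternatives other than leaving out single mice, with log2 fold changes of 1.48 to 2.6, 1.05 to 1.12 and 1.62 to 2.19. Leaving out both mice with fewer than 100 cells, chosen after seeing the data, gave 3 calls. Of all genes, 341 and 169 were called higher and lower, 554 and 484 with the likelihood ratio test, 220 higher without the lymphoid-like, stromal-like and dendritic-like clusters, 314, 103 and 330 lower with no low-count filter, with doublet calls left out and with the cluster as a term, and 111 to 452 higher and 44 to 286 lower with each mouse left out.

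In monocyte-like cells 2 members were called, but 1 with DESeq2, with the mouse as a random term, with clustering on all genes, and 1 to 2 with each mouse left out. The one lost was Iigp1 (adjusted p = 0.104, 0.0819 and 0.212). In dendritic-like cells the 1 call became 2 with no low-count filter, 0 with each cluster fitted alone, with the mouse as a random term and with clustering on all genes, and 0 to 2 with each mouse left out. In lymphoid-like cells 1 member, Iigp1, was called with no low-count filter (adjusted p = 0.0185) and with 12 clusters (adjusted p = 0.0183), and 0 to 1 with each mouse left out. In cluster 3 the 0 calls became 2 with DESeq2, 1 with the mouse as a random term and 0 to 2 with each mouse left out. In cluster 7, at 1 UMI or less per mouse, Gbp6 turned to -0.0042 with the mouse as a random term and -3.73 with clustering on all genes, and ranged from -3.76 to 3.76 with each mouse left out. Iigp1 there turned to -0.18 with clustering on all genes and ranged from -0.49 to 0.58. Gbp6 in cluster 6 ranged from -0.23 to 0.85. In the difference between lymphoid-like and monocyte-like cells, the calls ranged from 0 to 1, Irgm1 from -0.20 to 0.64 and Iigp1 from -1.03 to 0.32 with each mouse left out. The cause of these changes was not tested.

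No paired analysis was possible because control mice carry the numbers 1 to 4 and cKO mice 5 to 8. Depth limits the members most within clusters: Gbp5 and Gbp6 had few UMIs in a sum of 1 mouse and cluster, and on simulated counts few changed genes were recovered in clusters 6 and 7.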
